A study of Mus musculus with 10 samples.

Results

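The 39 genes described here are known from white or brown-like adipocytes. White adipocytes are the fat cells that form a layer of white adipose tissue beneath the dermis. The genes were chosen by symbol from the 24454 genes counted in this series, for what they are known to do. No measured value entered the rule, but earlier results of these data were known when the genes were chosen. By role they comprise 5 adipokines and secreted factors, 6 lipid droplet proteins, 4 transcription factors, 6 genes of uptake and transport, 5 genes of lipolysis, 6 genes of glycerolipid synthesis and its carbon supply, 5 genes of fatty acid synthesis, and *Ucp1* and *Nnat*. RNA-Seq was performed on full-thickness back skin that had been treated with carcinogen but held no tumor, from 5 WT mice and 5 Zfp36ΔARE mice (TTP delta ARE in the labels, which do not say whether 1 or both alleles carried it), 1 library per mouse. *Zfp36* encodes tristetraprolin (TTP), which binds AU-rich elements of mRNAs and promotes their decay. In Zfp36ΔARE mice an instability motif is deleted from the 3′-UTR of the endogenous gene, in every cell of the body, so the design does not tell in which cells the allele acts. Both groups were C57BL/6 littermates, 7 weeks old at the start, and both received a single dose of DMBA (400 nmol, a mutagen) and then TPA (10 nmol, a tumor promoter) 2 times a week for 20 weeks, so neither group is untreated skin. Each question below is how a gene differed between these 2 groups of treated skin.

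A white adipocyte stores triglyceride in 1 large lipid droplet coated with perilipins. Fatty acids reach it from the blood, where lipoprotein lipase frees them, or are made within the cell from glucose, and lipases release them again when energy is needed. The transcription factors PPARγ and C/EBPα drive and maintain the differentiated state, and the cell secretes hormones such as adiponectin and leptin. Dermal white fat of the mouse thickens and thins with the hair cycle. Several lipid genes listed here, above all those of fatty acid synthesis, are also active in sebaceous glands, keratinocytes and muscle.

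Libraries held 19595035 to 36419573 counts. *Zfp36* itself had 2152 ± 277 normalized counts in WT libraries and 5427 ± 766 in Zfp36ΔARE libraries (mean ± SD, n = 5 mice per group). This is an increase of 1.33 on the log2 scale (standard error, SE, 0.12), with an edgeR adjusted p of 0.0019. The study reported the same direction. A normalized count is the count scaled to a common library size. Some libraries stood apart. Counts of *Xist* were 14829 to 28087 in the 5 WT libraries and in Zfp36ΔARE replicate 1, and 4 to 15 in Zfp36ΔARE replicates 2 to 5, which alone held Y-linked counts (3349 to 4262, against at most 1 elsewhere). Genotype and these marks of sex therefore cannot be told apart, except as far as Zfp36ΔARE replicate 1 allows. WT replicate 3 gave the highest value of all 10 libraries in 34 of the 38 fat genes tested, and it had the lowest share of hair keratin counts (0.00773%, against 0.0549% to 0.373% in the other WT and 0.592% to 1.6% in the Zfp36ΔARE libraries).

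Fat genes were lower in Zfp36ΔARE skin. Of the 39, 38 passed the filter on low counts, and 31 of these were lower at an adjusted p under 0.05, while 0 were higher by edgeR (also 0 by DESeq2 or limma-voom, and 0 at an unadjusted p under 0.05). Among all 15543 genes tested, 19.1% were lower and 15.3% higher. The median log2 fold change was -1.02 over the 38 fat genes and 0.01 over all genes tested. A change of more than 2-fold downward was called in 20 fat genes, where the share over all genes was 6.64% (and 1.67% for more than 2-fold upward). In 25 fat genes each Zfp36ΔARE library lay below each WT library, which held for 11.9% of all genes tested. The 7 genes without a call were *Lep*, *Angptl4*, *Srebf1*, *Fabp4*, *Acly*, *Acaca* and *Nnat*, and of the 38 only *Nnat* had a positive log2 fold change. In whole skin, fewer fat cells and less of these mRNAs in each fat cell cannot be told apart.

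**Figure D1:**
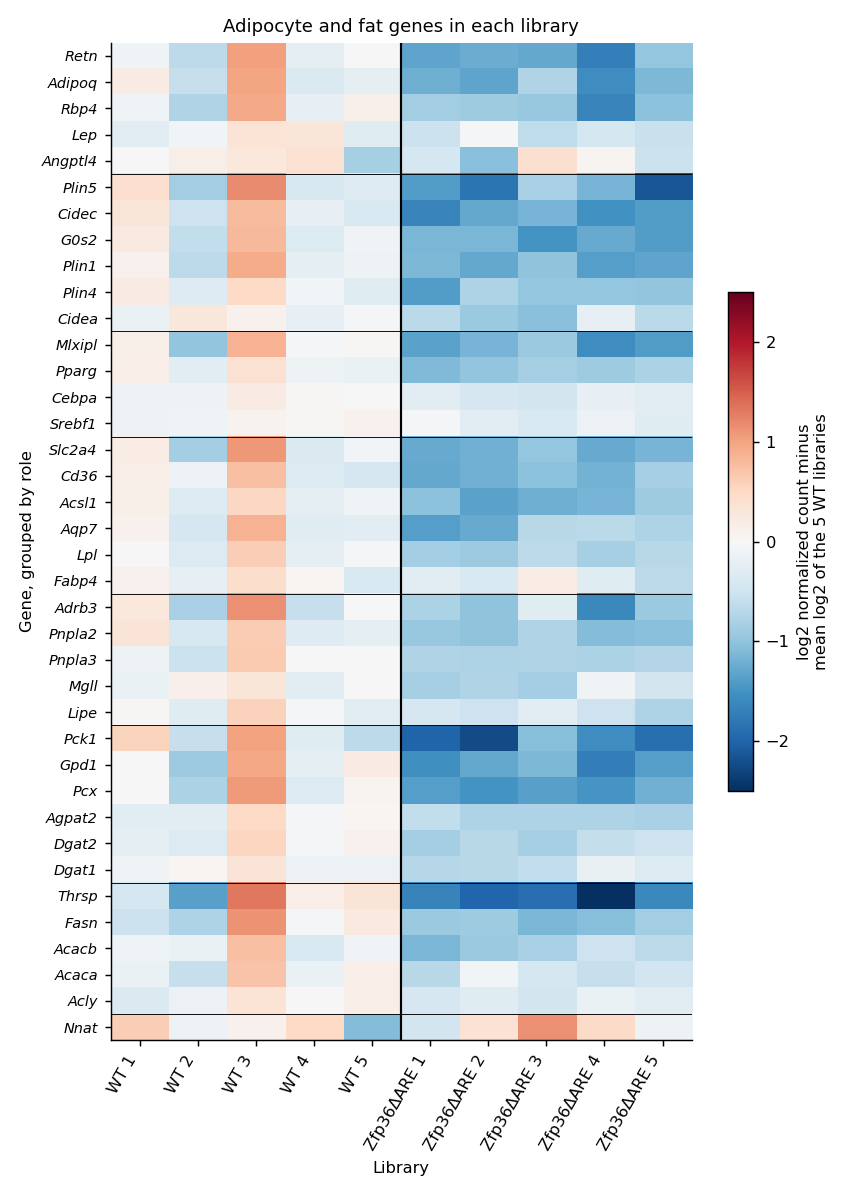
Heat map of the 38 tested fat genes (rows, grouped by role) in the 10 libraries (columns); color gives the log2 normalized count minus the mean log2 of the 5 WT libraries, red above and blue below. WT replicate 3 is the reddest column, and most rows are blue in all 5 Zfp36ΔARE libraries, while *Nnat*, *Angptl4* and *Fabp4* each have a Zfp36ΔARE library above 0.

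When WT replicate 3 was left out, 30 of the 38 genes were still called lower (over all genes, 15% were), but the median log2 fold change was -0.74 and only 11 exceeded 2-fold. When WT replicates 1 and 3, the libraries with the least hair keratin, were both left out, 26 were called lower (over all genes, 9.06% were), the median was -0.69 and 5 exceeded 2-fold. The sizes given below thus rest in part on those 2 libraries. For these fits, the share of all genes lower over 2-fold was not computed. Zfp36ΔARE replicate 1, the one without Y-linked counts, lay below every WT library in 33 of the 38 genes. It lay within the range of the other Zfp36ΔARE libraries in 23 of them, below it in 11 and above it in 4. These counts come from 1 mouse, and the shares of all genes for which they held were not computed. With the presence of Y-linked counts added to the edgeR fit, which leaves 1 Zfp36ΔARE library to compare with the 5 WT libraries, all 38 log2 fold changes were negative with a median of -1.02. In that fit 0 fat genes passed an adjusted p of 0.05 (0.18 to 0.9) and 24 had an unadjusted p under 0.05, against 0 and 3382 over all genes.

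**Figure D2:**
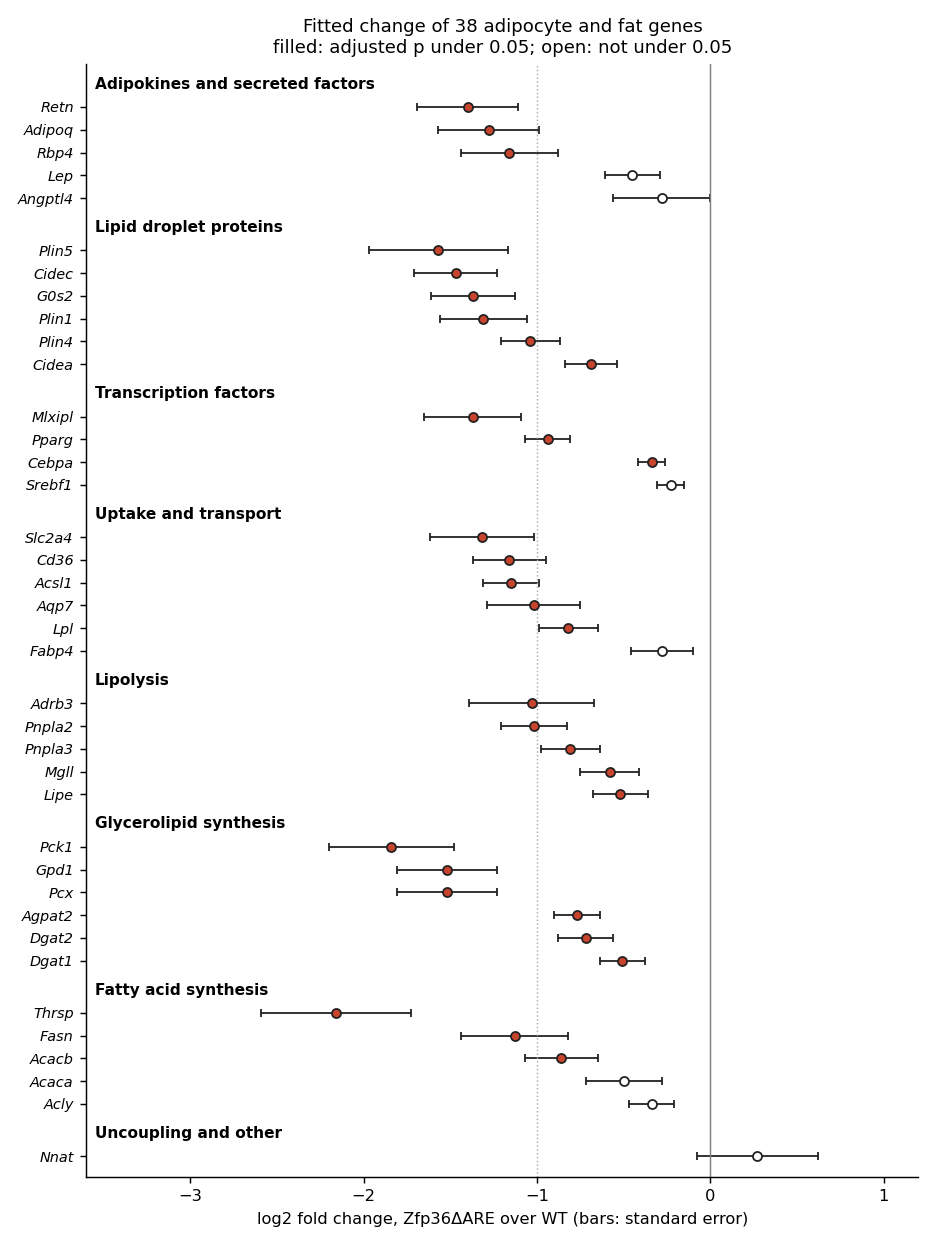
Fitted log2 fold change of each of the 38 tested fat genes, Zfp36ΔARE over WT, grouped by role; bars are standard errors, filled points have an adjusted p under 0.05 and the dotted line marks a 2-fold decrease. The points run from -2.16 for *Thrsp* to 0.27 for *Nnat*, and every lipid droplet, lipolysis and glycerolipid gene is filled.

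Of the secreted factors, 3 of 5 were lower. *Adipoq* (chr16:23146536-23157968 in mm10), which encodes adiponectin and is expressed almost only by adipocytes, had 5464, 3157, 9307, 3667 and 3993 normalized counts in WT replicates 1 to 5, and 2020, 1900, 2821, 1609 and 2181 in the Zfp36ΔARE replicates. The groups did not overlap, and WT replicate 3 was well above the rest. The log2 fold change was -1.28 (SE 0.29, adjusted p = 0.011), a 2.43-fold decrease that became -0.95 without WT replicate 3. *Retn*, for the hormone resistin, had 1945, 1320, 4249, 1750 and 2069 in WT and 842, 888, 862, 636 and 1071 in Zfp36ΔARE skin. Again no Zfp36ΔARE library reached the lowest WT library, and the log2 fold change was -1.40 (SE 0.29, adjusted p = 0.0088). *Rbp4*, which carries retinol in plasma, ran from 346 to 1127 in WT and from 186 to 319 in Zfp36ΔARE skin (log2 fold change -1.16, adjusted p = 0.015).

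Leptin and *Angptl4* behaved otherwise. *Lep*, the satiety hormone whose mRNA is made by fat cells, had 971, 1117, 1487, 1433 and 946 normalized counts in WT and 807, 1144, 749, 868 and 798 in Zfp36ΔARE skin. Zfp36ΔARE replicate 2 lay among the WT libraries, and the log2 fold change of -0.45 (SE 0.16) had an adjusted p of 0.0503, at the edge of the threshold. *Angptl4*, a secreted inhibitor of lipoprotein lipase, was spread widely in both groups, from 949 to 2209 in WT and from 815 to 2231 in Zfp36ΔARE skin, with a log2 fold change of -0.28 (95% interval -0.84 to 0.28, adjusted p = 0.46).

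Since TTP binds AU-rich elements, the annotated 3′-UTRs of the 39 genes were searched on the sense strand for TATTTAT, a core of such elements, with its shorter form ATTTA lying inside it. The longer motif was present in 12 of 39 (30.8%) and in 27.8% of the 14292 tested genes with an annotated 3′-UTR. The shorter one was in 64.1% and 66.3%, and the median 3′-UTR was 833 and 994 bases long. The fat genes thus held these letters about as often as the other genes. Sites in 1 gene without a call and 4 genes that were lower are shown, with the motif in capitals, 5′ to 3′ on the strand of the gene in mm10; *Lep* has overlapping copies.
*Lep*, chr6:29071616-29071642, plus strand: gaagcactTATTTATTTATtctgcatt
*Cidec*, chr6:113424638-113424660, minus strand: cagtaaacTATTTATgctgatac
*Lpl*, chr8:68906238-68906260, plus strand: tgaagaatTATTTATgaacgaga
*Slc2a4*, chr11:69943173-69943195, minus strand: ttttggatTATTTATgtgtgtgg
*Pnpla2*, chr7:141460037-141460059, plus strand: tgaagaatTATTTATttttgcca
A match is a run of letters and not evidence of binding, and decay of these mRNAs was not measured.

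All 6 lipid droplet genes were lower, 5 of them by more than 2-fold. *Plin1* (chr7:79721164-79732904) encodes perilipin 1, the coat protein that guards the droplet of white adipocytes against lipases. It had 2861, 1689, 5061, 2281 and 2445 normalized counts in WT and 1222, 1106, 1336, 1024 and 1077 in Zfp36ΔARE skin. The groups were separate and the Zfp36ΔARE values lay close together, with a log2 fold change of -1.31 (SE 0.25, adjusted p = 0.0075). *Cidec*, whose product fuses small droplets into the single large one, had 5698, 3241, 8000, 3993 and 3530 in WT and 1465, 1898, 2072, 1610 and 1759 in Zfp36ΔARE skin. Each Zfp36ΔARE library was below each WT library here too (log2 fold change -1.47, SE 0.24, adjusted p = 0.0053), and the value was -1.03 with WT replicates 1 and 3 both left out. *G0s2*, an inhibitor of the lipase ATGL, ran from 313 to 847 in WT and from 170 to 217 in Zfp36ΔARE skin (log2 fold change -1.37, adjusted p = 0.0061). *Plin4*, a coat protein of nascent droplets, ran from 6023 to 10614 and from 2866 to 4441 (log2 fold change -1.04, adjusted p = 0.0053).

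*Plin5* and *Cidea*, both also known from oxidative and brown fat, overlapped between the groups. *Plin5* had few reads, with 124, 50.9, 210, 69.9 and 74.3 normalized counts in WT and 35.2, 26.3, 52.7, 41.4 and 21.1 in Zfp36ΔARE skin. The overlap was that of 1 library, Zfp36ΔARE replicate 3, and the log2 fold change was -1.57 (SE 0.40, adjusted p = 0.017). It was -0.88 with an adjusted p of 0.068 when WT replicates 1 and 3 were left out. *Cidea* had 1434 in Zfp36ΔARE replicate 4 and at most 1040 in the others, against 1433 to 2019 in WT (log2 fold change -0.69, adjusted p = 0.011).

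The promoters of 30 of the 39 genes are in the RefSeq table for GRCm38.p6, as 43 windows from 250 bases before to 50 bases after a start. They were searched on both strands for TTGCNNAA, a form of the site bound by C/EBP factors, and it was found in 5 of the 43 windows, those of *Cidec*, *Lep*, *Plin1*, *Pparg* and *Rbp4*, and in 10.8% of all 32851 windows. The promoter of *Plin1* is shown because this droplet gene holds 2 matches, in capitals.
*Plin1*, chr7:79732727-79733026, minus strand: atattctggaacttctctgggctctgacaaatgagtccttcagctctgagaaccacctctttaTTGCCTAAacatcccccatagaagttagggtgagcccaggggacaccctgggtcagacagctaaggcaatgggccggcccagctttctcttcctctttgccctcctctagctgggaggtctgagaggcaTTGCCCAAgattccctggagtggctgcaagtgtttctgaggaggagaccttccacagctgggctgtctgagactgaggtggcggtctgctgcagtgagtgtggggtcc
The AGGNCANAGGNCA repeat, a form of the element bound by PPARγ with RXR, was in 0 of the 43 windows and in 0.381% of all windows.

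Of the 4 transcription factors, 3 were lower, by very different amounts. *Pparg* (chr6:115360879-115490404), the master regulator of adipocyte differentiation, had 1040, 766, 1210, 851 and 829 normalized counts in WT and 429, 465, 523, 499 and 537 in Zfp36ΔARE skin. The gap between the groups was clear, and the log2 fold change of -0.94 (SE 0.13) had an adjusted p of 0.004. *Mlxipl*, for the glucose-sensing factor ChREBP, had 992, 449, 1627, 865 and 910 in WT and 354, 399, 469, 306 and 338 in Zfp36ΔARE skin. Its groups touched, since Zfp36ΔARE replicate 3 exceeded WT replicate 2, and its log2 fold change was -1.37 (SE 0.28, adjusted p = 0.0085). *Cebpa*, which is also expressed in epidermis and sebaceous glands, ran from 4185 to 5318 in WT and from 3320 to 3953 in Zfp36ΔARE skin. These groups did not overlap, but the log2 fold change was only -0.34 (SE 0.08, adjusted p = 0.013). *Srebf1*, the regulator of fatty acid synthesis genes, ran from 3868 to 4538 and from 3224 to 4133, and its log2 fold change of -0.23 had an adjusted p of 0.0513.

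Of the 6 genes of uptake and transport, 5 were lower. *Lpl*, the lipase that frees fatty acids from lipoproteins, had 17417, 13637, 26613, 14679 and 17020 normalized counts in WT and 9618, 9305, 11024, 9803 and 10781 in Zfp36ΔARE skin. No value was shared between the groups (log2 fold change -0.82, SE 0.17, adjusted p = 0.0082). *Cd36*, a fatty acid receptor that macrophages and endothelium also carry, ran from 5847 to 13131 and from 3204 to 4410 (log2 fold change -1.16, adjusted p = 0.0067). *Acsl1*, which couples fatty acids to coenzyme A, had 10409, 7453, 13447, 8021 and 8775 in WT and 4647, 3720, 4020, 4182 and 5083 in Zfp36ΔARE skin. With a log2 fold change of -1.15 (SE 0.16), it shared the smallest adjusted p among the fat genes, 0.004, with *Pparg*. *Slc2a4*, the insulin-responsive glucose transporter GLUT4 of fat and muscle, had 2049, 995, 3846, 1405 and 1731 in WT and 749, 785, 927, 753 and 811 in Zfp36ΔARE skin. Here WT replicate 2 came within reach of the Zfp36ΔARE libraries without overlapping them (log2 fold change -1.32, SE 0.30, adjusted p = 0.012). *Aqp7*, the glycerol channel of adipocytes, was at 133 to 327 and 68.9 to 111 (log2 fold change -1.02, adjusted p = 0.018).

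*Fabp4*, for the adipocyte fatty acid-binding protein aP2 that endothelial cells and macrophages also make, was the exception. It had 17483, 13986, 21775, 16688 and 12331 normalized counts in WT and 13418, 12321, 18411, 13155 and 10295 in Zfp36ΔARE skin. The groups overlapped broadly, and the log2 fold change of -0.28 (SE 0.18, 95% interval -0.63 to 0.07) did not pass the test (adjusted p = 0.23). Per length it was also the most abundant fat gene, at 962 ± 212 CPM per kilobase (CPM, counts scaled to a fixed library total) in WT (SD, n = 5), against 165 ± 47.5 for *Lpl* and 156 ± 75.9 for *Adipoq*, which come next and lie within their spread of each other. At the low end of this scale in WT, among the genes tested, were *Mlxipl* (9.95 ± 4.35), *Aqp7* (2.8 ± 1.19) and *Plin5* (1.95 ± 1.18), the last pair also within their spread.

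**Figure D3:**
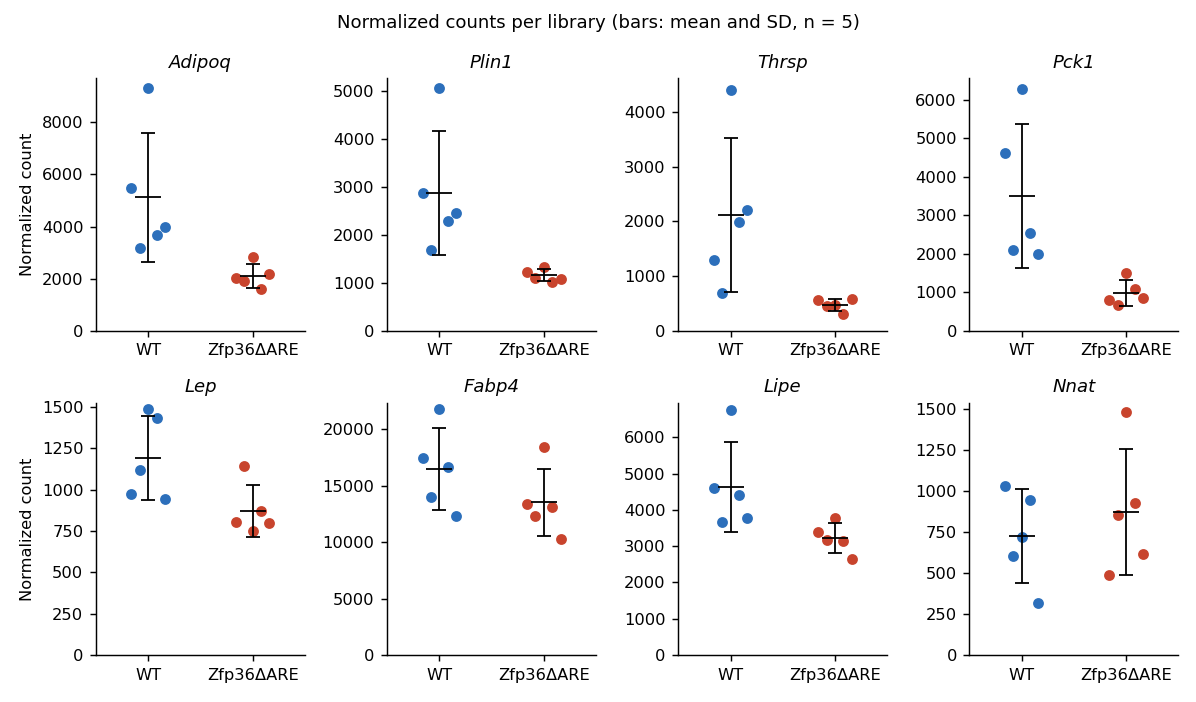
Normalized counts of 8 fat genes in each library; each point is 1 mouse, and the black bars give the mean and SD of 5. The groups are separate for *Adipoq*, *Plin1*, *Thrsp* and *Pck1* and overlap for *Lep*, *Fabp4*, *Lipe* and *Nnat*, with WT replicate 3 the highest WT point for all but *Nnat*.

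All 5 lipolysis genes were lower, but only 2 without overlap. *Pnpla2* encodes ATGL, which takes the first fatty acid from triglyceride. It had 5517, 3336, 6869, 3563 and 3786 normalized counts in WT and 2309, 2211, 2626, 2094 and 2155 in Zfp36ΔARE skin, and the groups were separate (log2 fold change -1.02, SE 0.19, adjusted p = 0.0072). *Lipe*, for the hormone-sensitive lipase that acts next, had 4593, 3677, 6751, 4406 and 3790 in WT and 3404, 3168, 3790, 3146 and 2656 in Zfp36ΔARE skin. Its decrease was smaller, with 1 Zfp36ΔARE library among the WT values (log2 fold change -0.52, SE 0.16, adjusted p = 0.033). *Mgll*, the monoglyceride lipase of the last step, was at 10763 to 16050 in WT and at 7227 to 12316 in Zfp36ΔARE skin (log2 fold change -0.58, adjusted p = 0.024). *Adrb3*, the β3-adrenergic receptor through which noradrenaline triggers lipolysis, had 1155, 551, 2111, 642 and 949 in WT and 557, 478, 775, 316 and 506 in Zfp36ΔARE skin. Its adjusted p of 0.049 (log2 fold change -1.03, SE 0.36) was the largest among the genes called. *Pnpla3*, a lipid droplet relative of ATGL, was at 2367 to 5376 in WT and in a narrow band of 1980 to 2070 in Zfp36ΔARE skin (log2 fold change -0.81, adjusted p = 0.0095). The calls of *Lipe*, *Mgll* and *Adrb3* were the least stable: they were lost in 8, 7 and 14 of 22 alternative analyses.

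Reads of some of these genes may include those of a neighbor, since it is not stated whether counting used strand. An annotated antisense transcript covers 24.9% of the exon bases of *Adrb3*, 15.6% of *Lipe* and 13% of *Gpd1*.

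The 6 genes that supply and assemble glycerolipid were all lower, with no overlap between the groups in any of them. *Pck1*, whose enzyme PEPCK provides glycerol 3-phosphate in fat cells, had 4620, 2099, 6277, 2538 and 1989 normalized counts in WT and 784, 664, 1506, 1071 and 857 in Zfp36ΔARE skin. At 3.59-fold its decrease was second among the fat genes (log2 fold change -1.84, SE 0.36, adjusted p = 0.0079). *Gpd1*, which reduces dihydroxyacetone phosphate to the same glycerol 3-phosphate, had 4731, 2536, 9380, 4018 and 5517 in WT and 1649, 1981, 2207, 1438 and 1851 in Zfp36ΔARE skin. *Pcx*, the pyruvate carboxylase, had 5355, 3054, 11064, 4185 and 5554 in WT and 2031, 1889, 2060, 1900 and 2323 in Zfp36ΔARE skin. The log2 fold change was -1.52 in both (SE 0.29 in both, adjusted p = 0.0078 for *Gpd1* and 0.0076 for *Pcx*). The acyltransferases fell less. The log2 fold change was -0.77 for *Agpat2*, which makes phosphatidic acid (adjusted p = 0.0059). It was -0.72 for *Dgat2* (adjusted p = 0.0097) and -0.51 for *Dgat1* (adjusted p = 0.015), the enzymes of the final step to triglyceride. *Dgat1* in Zfp36ΔARE replicate 4 (1527) came close to the lowest WT library (1558).

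Of the 5 genes of fatty acid synthesis, 3 were lower. *Thrsp* (chr7:97412933-97417550), a nuclear regulator of lipogenesis known as Spot 14, had 1296, 687, 4412, 1987 and 2209 normalized counts in WT and 552, 449, 475, 304 and 582 in Zfp36ΔARE skin. It had the largest decrease of the fat genes, 4.47-fold (log2 fold change -2.16, SE 0.43, adjusted p = 0.0082), without overlap but with a wide WT group. Without WT replicate 3 its log2 fold change was -1.71. *Fasn*, the fatty acid synthase, had 18245, 15677, 57785, 25662 and 31665 in WT and 14024, 14476, 12051, 12691 and 14684 in Zfp36ΔARE skin. The lowest WT and highest Zfp36ΔARE libraries nearly met, while WT replicate 3 was far above all others (log2 fold change -1.13, SE 0.31, adjusted p = 0.021). *Acacb*, the mitochondrial acetyl-CoA carboxylase, ran from 2729 to 5944 and from 1596 to 2470 (log2 fold change -0.86, adjusted p = 0.014). *Acaca*, its cytosolic relative that feeds synthesis, ran from 2687 to 6579 and from 2477 to 3830 (log2 fold change -0.50, adjusted p = 0.097). *Acly*, which makes cytosolic acetyl-CoA from citrate, ran from 9030 to 14727 and from 8447 to 10289 (log2 fold change -0.34, adjusted p = 0.057). The 95% intervals of the last 2, -0.92 to -0.07 and -0.59 to -0.09, lay below 0 before adjustment over all genes.

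The promoter of *Thrsp* is shown because this gene had the largest decrease. In capitals are its matches to CCAAT on either strand, letters that were found in 18 of the 43 fat gene windows and in 37.4% of all windows.
*Thrsp*, chr7:97417501-97417800, minus strand: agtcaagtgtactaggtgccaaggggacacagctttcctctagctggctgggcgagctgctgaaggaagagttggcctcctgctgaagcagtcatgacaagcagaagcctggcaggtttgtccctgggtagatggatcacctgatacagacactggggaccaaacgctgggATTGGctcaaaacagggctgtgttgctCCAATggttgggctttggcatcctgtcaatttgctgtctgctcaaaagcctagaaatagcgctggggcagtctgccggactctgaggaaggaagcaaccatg
The E-box CACGTG was in 4 of the 43 windows and in 7.15% of all windows. The sterol response element TCACNCCAC was in 2 of the 43, those of *Acsl1* and *Mlxipl*, and in 1.24% of all.

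*Ucp1*, the uncoupling protein of brown and beige adipocytes, had 0 to 4 counts in every library and was not tested, so no thermogenic fat was detectable through it in either group. *Nnat*, which encodes neuronatin, a small membrane protein of the endoplasmic reticulum made from an imprinted gene, had 1034, 604, 721, 949 and 318 normalized counts in WT and 486, 856, 1482, 929 and 617 in Zfp36ΔARE skin. The groups overlapped almost fully. Its log2 fold change was 0.27 (SE 0.35, 95% interval -0.42 to 0.95, adjusted p = 0.57), and it turned to -0.02 without Zfp36ΔARE replicate 3 and to -0.58 in the fit with the Y-linked term.

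Spread within the groups differed as well. The coefficient of variation over 5 mice had a median of 35.2% over the 38 genes in WT and 15.6% in Zfp36ΔARE skin, and it was larger in WT for 31 of them. Without WT replicate 3 the WT median was 19.3%, and the WT spread was larger for 28 genes. At the extremes were *Thrsp* in WT (66.8%) and *Pnpla3* in Zfp36ΔARE skin (1.66%). WT replicate 2 was the lowest WT library for 25 of the 38 genes. The spread of all tested genes was not computed, so whether the difference in spread is particular to fat genes is not known.

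To see which fat genes moved by like amounts, each was divided by *Adipoq* in the same library. Among the 37 genes compared, the ratio was higher in all Zfp36ΔARE than in all WT libraries for 2, *Fabp4* and *Lipe*, and lower for 0. Over all other tested genes the ratio was higher without overlap for 57.4% and lower for 0.0901%. *Fabp4* over *Adipoq*, on the log2 scale, was 1.23 to 2.19 in WT and 2.24 to 3.03 in Zfp36ΔARE libraries, a difference of means of 0.91. *Lipe* over *Adipoq* was -0.46 to 0.27 in WT and 0.28 to 0.97 in Zfp36ΔARE libraries, a difference of 0.69. For *Plin1* the ratio was -0.93 to -0.68 in WT and -1.08 to -0.65 in Zfp36ΔARE skin, so that the mRNAs of perilipin 1 and adiponectin fell by like amounts, and *Slc2a4* over *Adipoq* differed by 0.02. *Lep* over *Adipoq* was higher by 0.75 on average and *Acly* by 0.87, each with overlapping groups. *Pck1* and *Thrsp* were lower relative to *Adipoq*, by -0.56 and -0.75, also with overlap. These ratios were not tested.

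**Figure D4:**
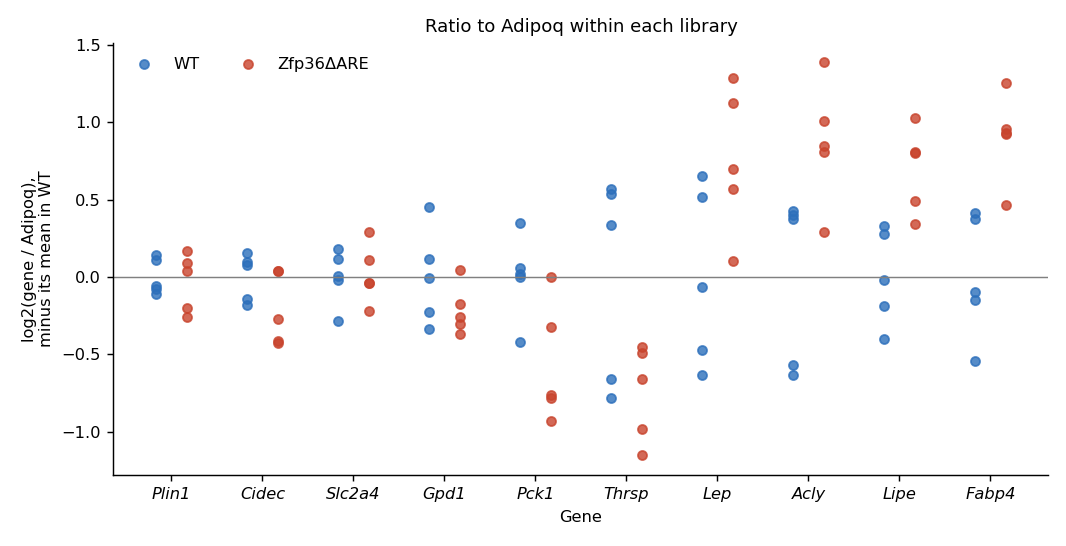
Ratio of 10 fat genes to *Adipoq* within each library, as log2 minus the WT mean of that ratio; each point is 1 mouse, blue WT and red Zfp36ΔARE. *Plin1* and *Slc2a4* stay near 0 in both groups, and the red points of *Lipe* and *Fabp4* lie above all of their blue points.

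Further genes of the same pathways were lower in part. Of 40 other adipocyte and lipid genes, 24 were lower and 1 was higher, with a median log2 fold change of -0.53. *Cfd*, for the secreted protease adipsin, had 24217 ± 9490 normalized counts in WT and 11255 ± 1153 in Zfp36ΔARE skin (SD, n = 5 each; log2 fold change -1.11, adjusted p = 0.0091), without overlap. *Elovl6*, which elongates fatty acids, was lower with overlap (log2 fold change -0.68, adjusted p = 0.024), and *Fabp5*, the fatty acid-binding protein of epidermis, did not pass the test (0.56, adjusted p = 0.13). The gene that was higher was *Scd2*, a stearoyl-CoA desaturase, at 12598 ± 3093 and 17597 ± 1434 (log2 fold change 0.48, adjusted p = 0.039). Among 14 brown and beige genes, 7 were lower and 0 higher (median -0.65), but only 3 were lower without WT replicate 1 or Zfp36ΔARE replicate 2, and 4 without WT replicate 3 or Zfp36ΔARE replicate 1 or 3. The most abundant of these were *Elovl3* (-0.41, adjusted p = 0.16), *Tbx1* (0.31, adjusted p = 0.24) and *Cox8b* (-1.22, adjusted p = 0.024), the last a gene that muscle also expresses. Of 9 tested genes of adipocyte precursors, 7 were lower and 0 higher (median -0.87). Only 5 were lower without WT replicate 1, WT replicate 3, or Zfp36ΔARE replicate 2 or 3. Those lower in the main fit included *Pi16* (-1.53, adjusted p = 0.004), *Cd34* (-1.10, adjusted p = 0.004) and *Ly6a* (-0.49, adjusted p = 0.036). Counts of whole skin do not tell which cells these mRNAs came from.

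Genes of other tissues of the skin differed as well. The CPM of the 39 fat genes summed to 5535 to 11450 in WT and 3994 to 4384 in Zfp36ΔARE libraries, so that the mean of the latter was 56.3% of that of the former. The narrower sum of 6 adipocyte markers (*Adipoq*, *Plin1*, *Cidec*, *Lep*, *Fabp4* and *Lipe*) was 1007 to 1963 in WT and 703 to 1094 in Zfp36ΔARE libraries (64.4%), and these groups overlapped through Zfp36ΔARE replicate 3. *Fabp4*, which had no call, weighs most in this sum, with a WT mean of 16453 normalized counts against 5118 for *Adipoq*. One by one, the groups were separate for *Adipoq*, *Plin1* and *Cidec* and overlapped for *Lep*, *Fabp4* and *Lipe*. Skeletal muscle genes, of the sheet of muscle beneath the dermal fat, summed to 10896 to 53702 in WT and 6325 to 13891 in Zfp36ΔARE libraries (34.7%), with 13 of 15 lower, among them *Myh4*, *Acta1* and *Atp2a1*. Only 2 of the 15 muscle genes were called lower with WT replicates 1 and 3 left out. Among the WT libraries, replicate 3 had the highest and replicate 2 the lowest of both the fat and the muscle sum; among the Zfp36ΔARE libraries, replicate 3 had the highest of both, but the lowest fat sum was in replicate 1 and the lowest muscle sum in replicate 4. Macrophage genes were at 39.4% of the WT mean (10 of 11 lower, *Mrc1*, *Csf1r* and *C1qb* included) and endothelial genes at 52.5% (9 of 9 lower, such as *Pecam1*, *Eng* and *Flt1*). Of the endothelial genes, 6 were lower without Zfp36ΔARE replicate 1 or 2. Sebaceous gland genes were at 54.7%, with 5 of 10 lower and a median log2 fold change of -0.30. Most abundant were *Scd1* (log2 fold change -1.01, adjusted p = 0.0081), *Fa2h* and *Far2*. *Scd1* weighs most in the sum, with a WT mean of 94411 normalized counts against 6404 for *Fa2h*. Of the 10 log2 fold changes, 8 were negative, and those of *Mc5r* (0.22) and *Scd3* (0.18) were positive. Only 3 genes were lower without WT replicate 1, 2 or 3 or Zfp36ΔARE replicate 2.

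Fibroblast genes (74.3% of the WT mean, 5 of 8 lower) overlapped between the groups in their sum, and *Col3a1*, *Col1a2* and *Col1a1* did not pass the test. Keratinocyte genes overlapped as well (80%, 2 of 10 lower, and 0 to 3 with 1 library left out: 0 without Zfp36ΔARE replicate 2, and 1 without WT replicate 2, 3, 4 or 5 or Zfp36ΔARE replicate 1 or 3), and *Krt10*, *Krt5* and *Krt1* did not pass. Hair shaft keratins summed to 76.5 to 3710 in WT and 5736 to 17044 in Zfp36ΔARE libraries, where 2 of 10 genes passed the test (*Krt35* and *Krt36*, both higher), while *Krt33a*, *Krt86* and *Krt81* had log2 fold changes of 2.30, 2.25 and 2.38 that did not pass. The part of these other tissues and of the hair cycle in the fat gene differences was not tested.

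**Figure D5:**
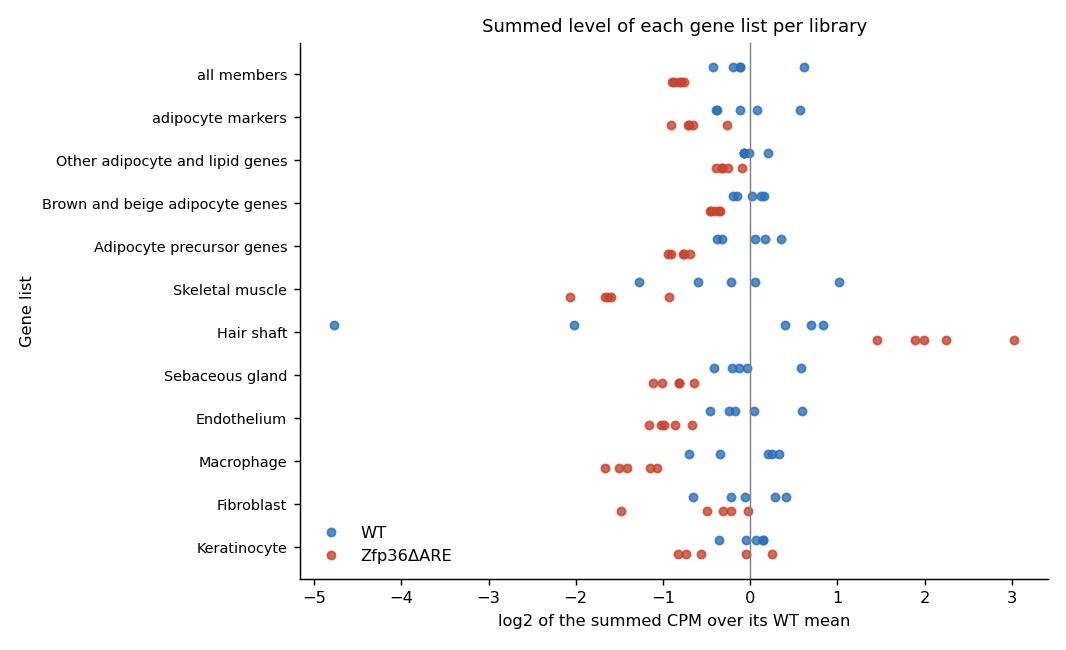
Summed CPM of each gene list in each library, as log2 over its WT mean; each point is 1 mouse, blue WT and red Zfp36ΔARE. The sum of the 39 fat genes (all members) does not overlap, those of the 6 adipocyte markers, muscle, fibroblast and keratinocyte genes do, and the hair shaft sum is higher in every Zfp36ΔARE library than in every WT library.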

How the data were processed

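RNA of whole back skin was extracted with TRIzol and sequenced paired-end, 5 libraries per genotype. The authors dropped reads whose mean quality was below 20, aligned the others to mm10 with STAR 2.5.2b, counted them per gene with featureCounts (Subread 1.5.0-p1) and deposited raw counts. Strand and multiple-match settings are not given in the sources used here.

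From these counts, edgeR 4.0.16 (R 4.3.3) applied filterByExpr and TMM scaling, and its robust quasi-likelihood test with genotype as the only term compared 15543 genes. P-values were adjusted by the Benjamini-Hochberg method, and a call means an adjusted p under 0.05; the study's further threshold of a fold over 2 was counted separately. The 2 rows without a gene name (7.38e-05% of counts) were left out. Each library is 1 mouse. The main fit did not pair mice across groups by replicate number, and whether these numbers pair mice is not known. Alternatives were DESeq2 1.42.0, limma-voom, glmTreat, other scalings and filters, a replicate block, equal depth, a Y-linked term and leaving out libraries. Gene coordinates and promoters come from RefSeq. Exon overlaps and 3′-UTR sites come from GENCODE annotation and transcript sequences of GRCm38. Every fat gene is named, with the 3 genes of most counts from each other list and any other lipid gene called higher. *Krt35* and *Krt36* were named after their values were seen. The fat genes and lists were chosen with earlier results of these data known. *Cavin1* and *Gpat3* were matched by Entrez number. Python 3.11.15 drew the figures.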

Additional observations from a re-analysis of the deposited data

Results flagged for a closer look

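A single library lay far from the other 4 of its group, by Dixon's test at the 95% level, in 4 of the 76 groups examined (38 genes in 2 genotypes), where chance gives about 3.8. In WT replicate 3, *Retn* stood at 4249 normalized counts and the rest of the WT group at 1320 to 2069, and *Acacb* had 5944 against 2729 to 3312. In Zfp36ΔARE replicate 4, *Rbp4* had 186 against 289 to 319 in the others of its genotype. In Zfp36ΔARE replicate 1, *Agpat2* had 1102 against 969 to 997, and this value still lay below every WT library.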

How the results depend on the processing

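The count of 31 fat genes lower, the count of 20 lower over 2-fold, the median log2 fold change of -1.02 and the count of 0 higher were recomputed under 22 alternatives. Against a fold of 2 itself (glmTreat in edgeR), 0 were lower and 0 lower over 2-fold, with 10 at an unadjusted p under 0.05 (577 of all genes). With the Y-linked term both counts were 0. Leaving out WT replicates 1 and 3 together gave 5 lower over 2-fold and a median of -0.69. Leaving out 1 library at a time gave 29 to 33 lower, where the share over all genes was 12.9% to 19.1%. These fits gave 11 to 21 lower over 2-fold (11 without WT replicate 3), medians of -1.11 to -0.74 and 0 higher. For them the share of all genes lower over 2-fold was not computed. Fat genes called higher numbered 0 under every alternative, at an unadjusted p under 0.05 too. DESeq2 called 34 lower (21.6% of all genes), adding *Lep*, *Srebf1* and *Acly*. *Nnat* ranged from -0.02 to 0.43 with 1 library left out, and was reversed without Zfp36ΔARE replicate 3 (-0.02) and with the Y-linked term (-0.58). Deviations of same-numbered libraries correlated at -0.192 to 0.0851, and no library correlated best with its own number. These correlations gave no sign of pairing by number, but so few libraries cannot exclude it. The fit with a replicate block called 28 fat genes lower (11.9% of all genes), without *Mgll*, *Dgat1* and *Fasn*. At these depths only *Ucp1* was too low to test. The causes of these changes were not tested.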
